A study of Homo sapiens with 18 samples.

Results

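The EGF receptor family, its ligands and the feedback inhibitors of its signaling were followed in spheroids of MDA-MB-231 cells, an established triple-negative breast cancer (TNBC) cell line, in which the Notch ligand Jagged1 (gene JAG1) was removed, put back or silenced. The genes were chosen by symbol, with earlier results of these data known, and are 10 of the 21411 genes in the count and CPM tables, namely the receptors EGFR, ERBB2 and ERBB3, the ligands AREG, EREG, HBEGF and TGFA, and the inhibitors DUSP6, SPRY2 and SPRY4. Their Entrez identifiers in the tables are, in that order, 1956, 2064, 2065, 374, 2069, 1839, 7039, 1848, 10253 and 81848. Messenger RNA was sequenced after 7 days of 3D culture from 50000 cells seeded in 2 mg/ml Matrigel, a basement membrane gel, in 6 conditions with 3 biological replicates each (18 libraries). Jag1WT is the parental line. Jag1KO pools single-cell clones of that line that were edited with Cas9 and a guide to exon 2 of JAG1. Jag1KO + rescue and Jag1KO + ctrl are Jag1KO cells that carry pcDNA3.1 with Jagged1 cDNA or pcDNA3.1 without insert, both kept under G418, so that both have the edit and the selection in common. The siCtrl and siJag1 cells are parental cells that received a nontargeting siRNA or a pair of siRNAs against JAG1 before seeding. Jag1WT was compared with Jag1KO, Jag1KO + rescue with Jag1KO + ctrl, and siCtrl with siJag1, with fold changes above 0 on the log2 scale where the group holding more JAG1 was higher. No library enters more than 1 of these 3 comparisons.

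The receptors are tyrosine kinases that pair up at the cell surface when a ligand binds and then signal through RAS, RAF, MEK and ERK. Amphiregulin (AREG), epiregulin (EREG), heparin-binding EGF-like growth factor (HBEGF) and TGFα (TGFA) are made as membrane proteins, are cut loose by ADAM proteases and bind EGFR, while EREG and HBEGF can also bind ERBB4. ERBB2 binds no known ligand and acts as a partner, and ERBB3 binds neuregulins and has little kinase activity of its own. DUSP6 removes phosphate from ERK, and SPRY2 and SPRY4 restrain signaling upstream of it. All of these inhibitors are induced by ERK. Breast cancers of the triple-negative class often carry much EGFR and are not ERBB2-amplified.

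Among the ligand genes AREG and EREG lie side by side on the same strand of chromosome 4, EREG at chr4:74365145-74388749 and AREG at chr4:74445136-74455005 (RefSeq, GRCh38.p14, here and below), 56.4 kb apart. Their promoter windows, the 250 bases before the RefSeq start of each gene, are shown because the genes are neighbors. Their group means ranked the 6 conditions in different orders, which was not tested, and their levels had a Pearson r of 0.521 over the 18 libraries. Capitals mark matches on either strand to any of the 4 motifs searched, TGGGAA (RBPJ, the DNA-binding partner of Notch), TGANTCA (AP-1), TGACGTCA (the cAMP response element, CRE) and CCGGAA (ETS).
AREG, chr4:74444886-74445135, plus strand: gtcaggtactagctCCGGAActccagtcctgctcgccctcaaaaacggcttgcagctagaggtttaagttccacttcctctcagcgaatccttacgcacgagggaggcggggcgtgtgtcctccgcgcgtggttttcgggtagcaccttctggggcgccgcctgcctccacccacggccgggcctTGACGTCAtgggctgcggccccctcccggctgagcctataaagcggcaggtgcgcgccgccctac
EREG, chr4:74364895-74365144, plus strand: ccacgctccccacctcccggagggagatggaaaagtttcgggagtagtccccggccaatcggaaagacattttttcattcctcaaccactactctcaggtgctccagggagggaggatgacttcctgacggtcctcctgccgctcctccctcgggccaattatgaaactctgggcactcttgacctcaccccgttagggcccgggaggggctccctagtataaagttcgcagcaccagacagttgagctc
The AREG window held the CRE letters, starting 65 bases before the gene start, and the ETS letters, starting 236 bases before it, and neither window held the RBPJ or AP-1 letters. Of 35093 promoter windows of this length in the RefSeq table, 1.65% held the CRE letters, 14.5% the ETS letters, 20.9% the RBPJ letters and 6.57% the AP-1 letters. Over the first windows listed for 9 of the 10 genes, the RBPJ letters were found in 1 (HBEGF), the AP-1 letters in 1 (ERBB2), the CRE letters in 1 (AREG) and the ETS letters in 3 (AREG, ERBB2 and SPRY2). Further windows were listed for EGFR, which held the RBPJ and AP-1 letters, TGFA, which held the RBPJ and ETS letters, and SPRY2, which held none. The 35093 windows include such further windows, so those shares are not of first windows alone. These matches are descriptions of sequence, and no binding was measured.

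The libraries held 10330581 to 18327890 reads counted on genes, and replicates of a group were distinct libraries, with a chi-square per degree of freedom of 7.34 to 106 between their counts in 18 pairs. JAG1 fell from 513 ± 76.7 to 157 ± 45.1 CPM between Jag1WT and Jag1KO (mean ± SD, n = 3 here and below), and from 612 ± 67.9 to 131 ± 18.7 CPM between Jag1KO + rescue and Jag1KO + ctrl. These changes were called (edgeR quasi-likelihood test, adjusted p = 0.0162 and 0.0229). JAG1 had 532 ± 92.4 CPM in siCtrl and 167 ± 35.7 CPM in siJag1, with no overlap of the libraries and an edgeR adjusted p of 0.111. HES1, a classical Notch target, was at 15.6 ± 5.88, 12.4 ± 9.03 and 13.3 ± 0.604 CPM in Jag1WT, Jag1KO + rescue and siCtrl, and at 1.90 ± 1.58, 0.881 ± 0.777 and 4.42 ± 1.10 CPM in their counterparts (edgeR adjusted p = 0.053, 0.104 and 0.125). All 4 markers listed for a mesenchymal TNBC line were present, with VIM at 2184 to 4946, FN1 at 642 to 1804, CD44 at 396 to 559 and ZEB1 at 91.7 to 141 CPM over the libraries. Of the luminal genes, ESR1, PGR and FOXA1 reached at most 0.136, 1.77 and 4.91 CPM and GATA3 was at 5.25 to 11.5 CPM. Of the epithelial genes, CDH1 reached at most 1.16 CPM, EPCAM was at 5.18 to 8.99, KRT8 at 31.0 to 149 and KRT18 at 127 to 162 CPM. Of the fibroblast genes, DCN, COL1A2, LUM and PDGFRA reached at most 0.130, 0.196, 0.273 and 0.495 CPM and PDGFRB 1.35 CPM, and COL1A1 was at 2.66 to 10.0 CPM. The mean log2(CPM + 1) of 97 S and G2/M phase genes was 5.72 and 6.09 in Jag1KO + ctrl replicates 1 and 2, 6.07 in siJag1 replicate 2 and 5.55 and 5.67 in Jag1KO replicates 2 and 3, and 4.10 to 5.10 in the other libraries. Replicates are separate cultures per the labels, and as these are bulk libraries, fewer cells with a transcript and less of it per cell cannot be told apart.

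Per kilobase of gene length, the spheroids held more transcript of 3 of the 4 ligands and of all 3 inhibitors than of TGFA, ERBB2 or ERBB3. DUSP6 had the highest level, with a median over the 18 libraries of 177 CPM per kb (142 to 224). The medians were 102 CPM per kb for HBEGF, 99.8 for SPRY4, 89.2 for EREG, 86.4 for AREG, 70.7 for EGFR and 64.7 for SPRY2. TGFA followed at 12.4 CPM per kb and ERBB2 at 6.93 CPM per kb, and the ranges of these genes did not reach that of EGFR, whose lowest library had 43.4 CPM per kb. ERBB3 was at the edge of detection, with 0.202 CPM per kb and 8 to 84 reads per library. Of the rest of the family, NRG1, a neuregulin that binds ERBB3 and ERBB4, was at 89.2 to 298 CPM over the libraries. The highest library reached 5.82 CPM for EGF, 4.11 CPM for BTC, 3.34 CPM for NRG2, 0.719 CPM for ERBB4, 0.522 CPM for EPGN and 0.060 CPM for NRG4.

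**Figure D1:**
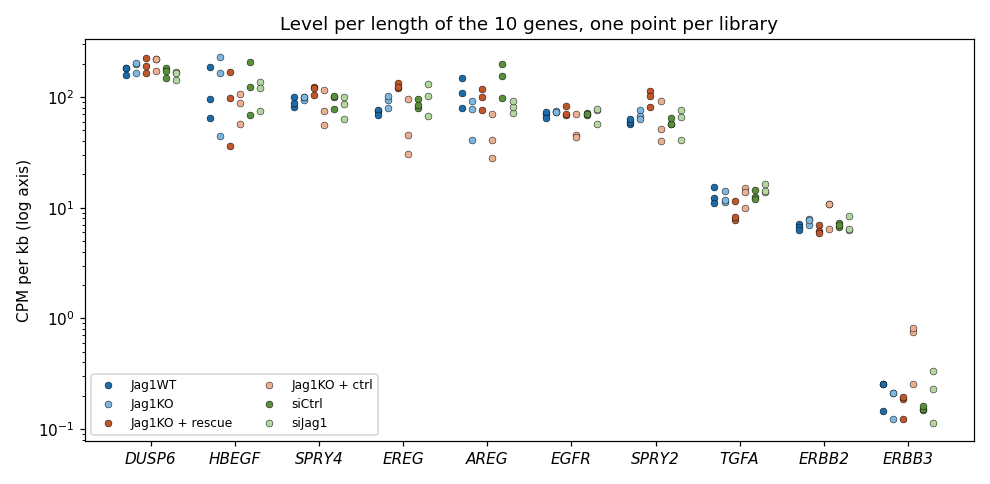
Level of each gene in CPM per kb of gene length on a log axis, one point per library, colored by condition. The inhibitors, EGFR and 3 ligands sit above 28 CPM per kb in every library, TGFA and ERBB2 lie near 10, and ERBB3 lies below 1.

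None of the 10 genes was called in any of the 3 comparisons by edgeR at an adjusted p below 0.05 and a fold change above 1.5. In Jag1WT against Jag1KO, where 0.412% of 12879 genes were called higher and 0.303% lower, 0 of 10 were called and 1 (EREG) had an unadjusted p below 0.05, against 8.81% of all genes. In Jag1KO + rescue against Jag1KO + ctrl the test called 0.00778% of 12850 genes higher (1 gene, JAG1) and 0% lower, and 5 of the 10 genes had an unadjusted p below 0.05, against 30.8% of all genes. In siCtrl against siJag1 it called 0.0157% of 12774 genes higher (2 genes) and 0% lower, and 1 of the 9 genes tested (AREG) had an unadjusted p below 0.05, against 3.83% of all genes, while ERBB3 was too low to be tested. All libraries of a group lay apart from those of the other in 3 of 10 genes in the first comparison (EGFR, EREG and SPRY2, all lower in Jag1WT), against 13.8% of all genes. They lay apart in 3 of 10 in the second (AREG and EREG higher and ERBB3 lower with the rescue plasmid), against 32.5%, and in 1 of 9 in the third (AREG, higher in siCtrl), against 10.5%. Limma on log2(CPM + 1) called none of the 10 genes in these comparisons, and DESeq2 called none in the first and the third.

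**Figure D2:**
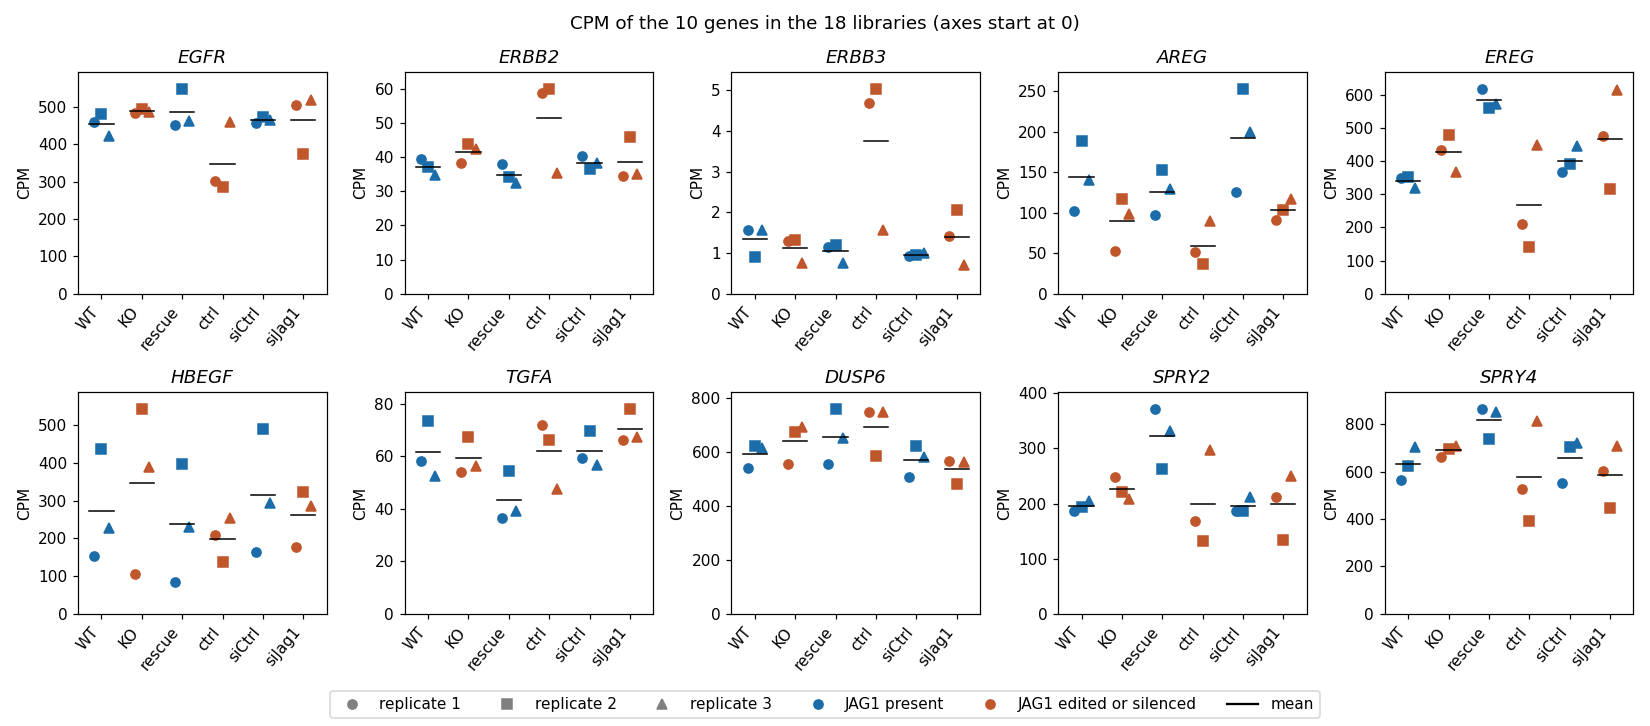
CPM of each gene in each library, with conditions on the x axis, marker shapes for the replicate numbers, and a bar for the mean of 3. AREG has its higher means in the conditions with JAG1 present (blue) and its lower means where JAG1 was edited or silenced (orange), and in most genes Jag1KO + ctrl replicates 1 and 2 lie apart from replicate 3.

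EGFR (chr7:55019017-55211628), the receptor of all 4 ligands, was lower in Jag1KO + ctrl than in the other conditions. Its mean level was 488 ± 6.09 CPM in Jag1KO, 487 ± 53.3 in Jag1KO + rescue, 466 ± 80.1 in siJag1, 466 ± 8.65 in siCtrl, 455 ± 30.3 in Jag1WT and 348 ± 96.3 in Jag1KO + ctrl. Only the last step of that order exceeded the pooled SD of the neighboring groups. The libraries of Jag1KO + ctrl had 301, 285 and 459 CPM, so that replicates 1 and 2 were the lowest of all 18 and replicate 3 was within the range of the other groups. In siJag1, replicate 2 had 374 CPM where the other two had 506 and 518 CPM. The log2 fold change of EGFR was −0.11 (SE 0.099) in Jag1WT against Jag1KO, 0.48 (SE 0.217) with the rescue plasmid and 0.01 (SE 0.135) in the silencing, with edgeR adjusted p-values of 0.798, 0.176 and 0.998.

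ERBB2 (chr17:39688094-39728658) and ERBB3 (chr12:56080108-56103505) went the other way in the same libraries. ERBB2 was at 58.9, 60.0 and 35.3 CPM in Jag1KO + ctrl and at 34.5, 46.0 and 35.0 CPM in siJag1, and in the libraries of the other conditions it lay between 32.5 and 43.8 CPM. Its group means ran from 51.4 ± 13.9 CPM in Jag1KO + ctrl through 41.5 ± 2.90 in Jag1KO, 38.5 ± 6.51 in siJag1, 38.4 ± 1.88 in siCtrl and 37.0 ± 2.35 in Jag1WT to 34.9 ± 2.85 in Jag1KO + rescue, and no step exceeded the pooled SD of its neighbors. ERBB3 had 4.68, 5.03 and 1.56 CPM in Jag1KO + ctrl (26 to 84 reads) and 1.16, 1.20 and 0.762 CPM in Jag1KO + rescue (13 to 17 reads), and these groups did not overlap. Its log2 fold change in that comparison was −1.86 (SE 0.482, edgeR adjusted p = 0.105), the farthest from 0 of the 10 genes there. In the other 5 conditions the mean of ERBB3 was between 0.951 and 1.39 CPM. ERBB2 overlaps PGAP3 and MIEN1 on the opposite strand (5.30 to 11.3 and 15.6 to 25.8 CPM), and as the strand setting of the counting is not given in the sources used here, reads of these genes may not have been told apart.

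With all libraries, AREG was the only one of the 10 genes whose fold change with more JAG1 was over 1.5 in each of the 3 comparisons. Its CPM in replicates 1, 2 and 3 was 103, 189 and 140 in Jag1WT and 52.8, 117 and 98.8 in Jag1KO. With the rescue plasmid it was 97.2, 152 and 129, and with the empty plasmid 52.1, 36.2 and 89.9. In siCtrl it was 125, 253 and 200, and in siJag1 91.0, 104 and 117. The ranges overlapped between Jag1WT and Jag1KO and did not overlap in the other two comparisons. The log2 fold change was 0.68 (1.60-fold, SE 0.313, edgeR adjusted p = 0.587) in Jag1WT against Jag1KO. Without 1 library it ran from 0.40 to 0.92 there, and the fold was under 1.5 without Jag1KO replicate 1 (1.32) and without Jag1WT replicate 2 (1.35). With all libraries it was 1.08 (2.12-fold, SE 0.331, edgeR adjusted p = 0.11) with the rescue plasmid and 0.90 (1.86-fold, SE 0.234, edgeR adjusted p = 0.97) in the silencing, where its unadjusted p ranked 64 of 12774 genes. The replicate numbers were taken to pair siCtrl with siJag1, which the labels do not state. That pairing was read from correlations in these same libraries. With the number as a block the silencing gave 0.85 (SE 0.146, edgeR adjusted p = 0.235, range over the alternatives 0.102 to 1), with AREG higher in siCtrl in 3 of 3 pairs.

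A single fit over the 18 libraries was then used to test the mean of the 3 comparisons. This test was chosen after the values of AREG had been seen, so it is not independent of them. The mean log2 fold change of AREG was 0.88 (1.84-fold, SE 0.202, edgeR adjusted p = 0.0428), and AREG was called, with 0.353% of 12757 genes called higher. No other of the 10 genes was called in it, and without Jag1KO + ctrl replicate 3 ERBB3 was called lower (−0.86, edgeR adjusted p = 0.0123), with 4.82% of 12715 genes called lower in that fit. Of 18 fits that left out 1 library each, AREG was called in 5 (without Jag1WT replicate 1, Jag1KO replicate 1, Jag1KO + ctrl replicate 3, siCtrl replicate 1 or siJag1 replicate 3) and not called in the rest. The adjusted p-values of the 18 fits were between 0.00463 and 0.0961, and the mean log2 fold changes between 0.79 and 1.02. For the same mean over the same libraries, limma on log2(CPM + 1) called AREG as well (0.90, adjusted p = 0.0366), with 0.345% of 12757 genes called higher.

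**Figure D3:**
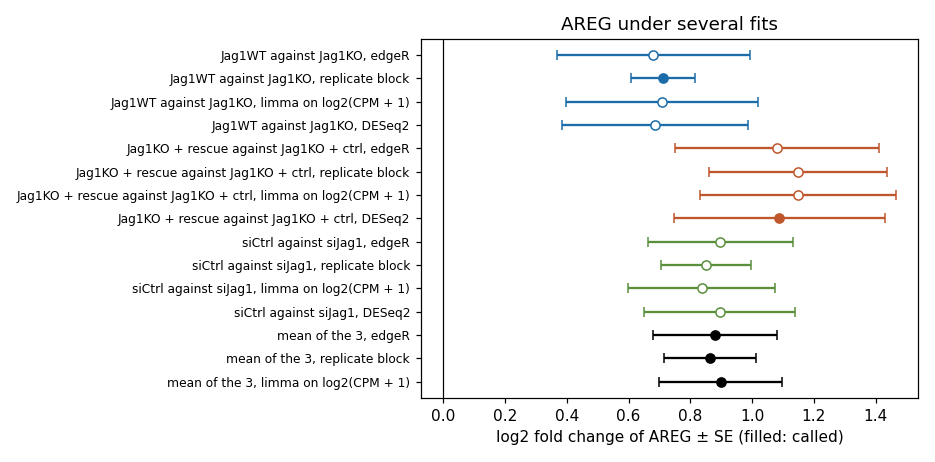
Log2 fold change of AREG with its SE in each comparison and in their mean, under edgeR, edgeR with a replicate block, limma and, for the single comparisons, DESeq2. All estimates lie between 0.68 and 1.15, and the filled points, which passed the adjusted p and fold change thresholds, are the block in Jag1WT against Jag1KO, DESeq2 in the rescue comparison and the 3 fits of the mean.

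AREG also had unlike means in groups in which JAG1 was not changed on purpose, though their libraries overlapped and edgeR did not call it. Its mean was 193 ± 64.2 CPM in siCtrl and 144 ± 43.5 CPM in Jag1WT, a log2 difference of 0.41 (SE 0.270, edgeR adjusted p = 1). The numbers were taken to pair these groups too, again from correlations in these same libraries, so the block is not independent of them. With the block the difference was 0.40 (1.32-fold, SE 0.0663, edgeR adjusted p = 0.0235), under the fold change that was required for a call. Jag1KO + ctrl had 59.4 ± 27.6 CPM against 89.6 ± 33.1 CPM in Jag1KO (log2 difference −0.61, SE 0.386, edgeR adjusted p = 0.764). In the order of the 6 means (siCtrl, Jag1WT, 126 ± 27.7 in Jag1KO + rescue, 104 ± 12.8 in siJag1, Jag1KO and Jag1KO + ctrl), the step from Jag1KO + rescue to siJag1 alone exceeded the pooled SD of its neighbors.

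EREG, the neighbor of AREG, was lower in Jag1WT than in Jag1KO and higher with the rescue plasmid than with the empty one. Its libraries had 350, 353 and 319 CPM in Jag1WT and 434, 479 and 366 CPM in Jag1KO, and these ranges did not overlap (log2 fold change −0.33, SE 0.122, edgeR adjusted p = 0.456). They had 618, 561 and 571 CPM in Jag1KO + rescue and 210, 142 and 448 CPM in Jag1KO + ctrl, again without overlap (1.12, SE 0.381, edgeR adjusted p = 0.119). In siCtrl the values were 366, 391 and 444 CPM and in siJag1 475, 315 and 614 CPM, where the groups overlapped (−0.22, SE 0.221, edgeR adjusted p = 0.97). The difference of the first 2 fold changes was −1.43 (SE 0.431, edgeR adjusted p = 0.0995). Mean levels fell from 583 ± 30.0 CPM in Jag1KO + rescue through 468 ± 150 in siJag1, 427 ± 56.8 in Jag1KO, 400 ± 39.8 in siCtrl and 341 ± 18.8 in Jag1WT to 267 ± 161 in Jag1KO + ctrl, and the steps below Jag1KO + rescue and below siCtrl exceeded the pooled SD. EREG was also higher in all libraries of siCtrl than in those of Jag1WT (0.22, SE 0.0971, edgeR adjusted p = 1), groups in which JAG1 had 532 and 513 CPM.

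HBEGF (chr5:140332843-140346603) varied more between replicates than any other of the 10 genes. Its pooled SD within groups was 0.858 on the log2(CPM + 1) scale, and the SD of its 6 group means was 0.245. The first is over single libraries and the second over means of 3, so they are unlike measures. EGFR, ERBB2, DUSP6, SPRY2 and SPRY4 also had the smaller value for the group means. Replicates 1, 2 and 3 had 153, 438 and 228 CPM in Jag1WT, 105, 542 and 388 in Jag1KO and 85.1, 396 and 230 in Jag1KO + rescue. They had 162, 491 and 294 CPM in siCtrl, 178, 322 and 286 in siJag1 and 208, 136 and 253 in Jag1KO + ctrl. Replicate 1 was thus the lowest and replicate 2 the highest library in 5 of the 6 conditions, the exception being Jag1KO + ctrl. AREG also had its lowest library in replicate 1 in 5 of 6 conditions and its highest in replicate 2 in 4 of 6. Over the deviations of the 18 libraries from their group means, AREG and HBEGF had a Pearson r of 0.886, given as a description. The labels call the replicates biological and name no day or batch. The log2 fold changes of HBEGF were −0.34 (SE 0.566), 0.25 (SE 0.494) and 0.27 (SE 0.379), with edgeR adjusted p-values of 0.906, 0.735 and 0.975.

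TGFA (chr2:70447284-70553826) was between 36.7 and 78.1 CPM in the 18 libraries. Jag1KO + rescue had 36.7, 54.6 and 39.3 CPM and Jag1KO + ctrl 72.1, 66.2 and 47.8 CPM, which overlapped (log2 fold change −0.51, SE 0.219, edgeR adjusted p = 0.158). In the other comparisons it was 0.05 (SE 0.153) and −0.18 (SE 0.121), with edgeR adjusted p-values of 0.953 and 0.97. The group means were 70.5 ± 6.57 CPM in siJag1, 62.0 ± 12.7 in Jag1KO + ctrl, 61.9 ± 6.81 in siCtrl, 61.6 ± 10.8 in Jag1WT, 59.3 ± 7.01 in Jag1KO and 43.5 ± 9.70 in Jag1KO + rescue. Only the last step exceeded the pooled SD of its neighbors.

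The inhibitor DUSP6 (chr12:89347235-89352501) was the steadiest of the 10 genes, with 1.57 times between its highest (760 CPM) and lowest library (483 CPM). Its means were 694 ± 95.0 CPM in Jag1KO + ctrl, 656 ± 102 in Jag1KO + rescue, 641 ± 72.8 in Jag1KO, 593 ± 46.2 in Jag1WT, 571 ± 59.0 in siCtrl and 538 ± 47.9 in siJag1, with no step beyond the pooled SD. The log2 fold changes were −0.12 (SE 0.129), −0.09 (SE 0.185) and 0.09 (SE 0.118), and the edgeR adjusted p-values 0.843, 0.756 and 0.974. Each estimate plus or minus 2 SE, an approximate range, lay within a 1.5-fold difference in either direction.

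SPRY2 (chr13:80335976-80341126) and SPRY4 (chr5:142310430-142325021) were highest in Jag1KO + rescue and moved together, with a Pearson r of 0.91 over the 18 libraries and 0.911 over deviations from the group means. SPRY2 had 371, 263 and 331 CPM in Jag1KO + rescue and 168, 131 and 297 CPM in Jag1KO + ctrl, and the overlap came from replicate 3 of Jag1KO + ctrl. Its log2 fold change there was 0.69 (SE 0.299, edgeR adjusted p = 0.165). SPRY2 was lower in all libraries of Jag1WT (187, 194 and 205 CPM) than in those of Jag1KO (249, 220 and 208 CPM), a log2 fold change of −0.21 (SE 0.105, edgeR adjusted p = 0.617). In siCtrl and siJag1 its means were 195 ± 14.8 and 199 ± 59.2 CPM (−0.02, SE 0.206, edgeR adjusted p = 0.998). SPRY4 had 864, 736 and 854 CPM with the rescue plasmid and 527, 392 and 815 CPM with the empty one (0.49, SE 0.263, edgeR adjusted p = 0.231). Its means in Jag1WT, Jag1KO, siCtrl and siJag1 were 632 ± 69.1, 690 ± 23.9, 658 ± 94.1 and 586 ± 132 CPM, with log2 fold changes of −0.13 (SE 0.119) and 0.18 (SE 0.183) and edgeR adjusted p-values of 0.795 and 0.97. For both genes the step below Jag1KO + rescue was the only one in the order of the means to exceed the pooled SD. The antisense gene SPRY4-AS1, which overlaps SPRY4, was at 0.409 to 3.40 CPM.

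When edgeR was fitted to the 6 libraries alone, the calls of the rescue comparison turned on 1 library. DESeq2 and the edgeR fit over 18 libraries, given below, called genes with all 6 kept. Without Jag1KO + ctrl replicate 3, edgeR called 14% of 12690 genes higher and 14.8% lower, and 8 of the 10 genes passed, with 2 libraries left in the empty-plasmid group. EGFR (log2 fold change 0.73, adjusted p = 0.0108), AREG (1.51, adjusted p = 0.00621), EREG (1.73, adjusted p = 0.00305), SPRY2 (1.10, adjusted p = 0.00679) and SPRY4 (0.83, adjusted p = 0.0112) were then called higher with the rescue plasmid. ERBB2 (−0.77, adjusted p = 0.00753), ERBB3 (−2.23, adjusted p = 0.00417) and TGFA (−0.67, adjusted p = 0.0386) were called lower. HBEGF and DUSP6 were not called. Over all alternatives of this comparison the adjusted p ran from 0.00621 to 0.375 for AREG, 0.00305 to 0.379 for EREG, 0.00417 to 0.375 for ERBB3, 0.00753 to 0.395 for ERBB2 and 0.0108 to 0.467 for EGFR. With all 6 libraries, DESeq2 called 4.45% of genes higher and 7.74% lower, among them AREG, EREG and ERBB3 (adjusted p = 0.0218, 0.0284 and 0.0138). An edgeR fit that shared its spread over all 18 libraries called 6.05% higher and 10.7% lower, among them these 3 genes and ERBB2 (adjusted p = 0.038, 0.018, 0.00866 and 0.0238). Without any other of the 6 libraries, none of the 10 genes was called by edgeR.

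**Figure D4:**
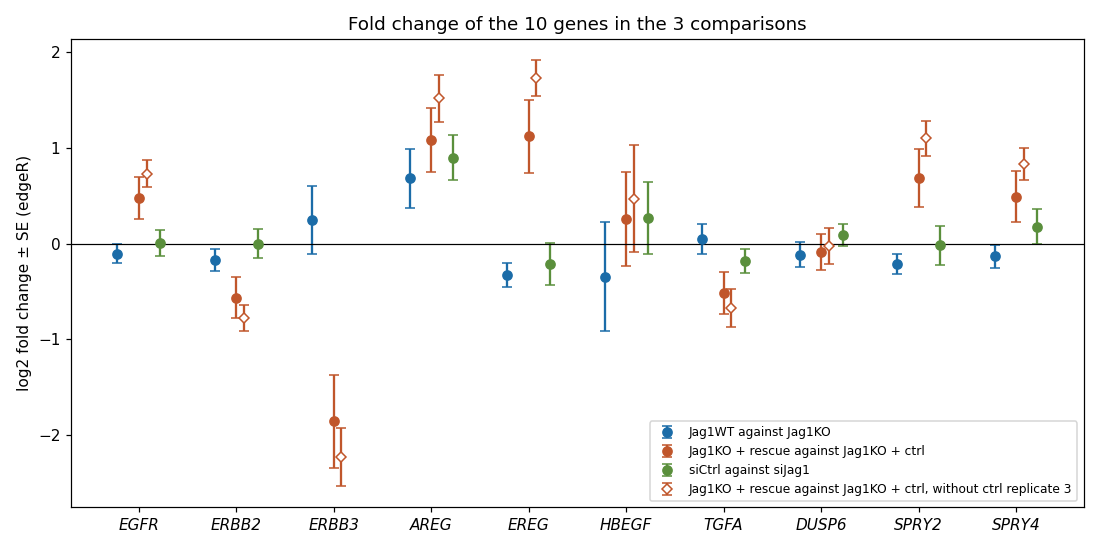
Log2 fold change of each gene with its SE (edgeR) in the 3 comparisons, with open diamonds for the rescue comparison without Jag1KO + ctrl replicate 3. AREG is above 0 in all 3, DUSP6 is near 0 in all 3, and the diamonds of the 8 genes called without that library lie farther from 0 than the filled points of the same comparison.

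The same library decided the edgeR calls of the 10 genes in Jag1KO + ctrl against Jag1KO, in which the empty plasmid and its selection were the intended difference. With all libraries 0% of 12956 genes were called in either direction by edgeR, 2 of the 10 genes had an unadjusted p below 0.05 (5.81% of all genes), and DESeq2 and limma called none of the 10. All libraries of both groups lay apart in 2 of the 10 genes (EGFR lower, ERBB3 higher), against 10.1% of all genes. ERBB3 had a log2 fold change of 1.70 (SE 0.493, edgeR adjusted p = 0.757) and EGFR of −0.50 (SE 0.201, edgeR adjusted p = 0.757). Without Jag1KO + ctrl replicate 3, 0.881% of 12827 genes were called higher and 1.47% lower. ERBB3 was then called higher (2.06, adjusted p = 0.0383), and EGFR (−0.75, adjusted p = 0.0413) and EREG (−1.29, adjusted p = 0.0425) were called lower. The comparison shares Jag1KO + ctrl with the rescue comparison, so that these values are not separate evidence. In siCtrl against Jag1WT 0% of 12797 genes were called by edgeR, and DESeq2 and limma called none of the 10. Of the 9 genes tested, 1 had an unadjusted p below 0.05 (1.38% of all genes) and 1 (EREG) lay apart, against 6.3% of all genes.

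The fold changes were compared between the 3 comparisons, since JAG1 differed in each by another means. None of the 10 genes passed an adjusted p of 0.05 for the difference between the knockout and the rescue comparison, which 0.555% of 12804 genes did. The nearest were ERBB3 (difference of log2 fold changes 2.13, SE 0.634, edgeR adjusted p = 0.0988) and EREG. None passed between the knockout and the silencing (0.11% of 12765 genes) or between the rescue and the silencing (0.094% of 12761 genes). At an unadjusted p below 0.05 there were 4, 0 and 1 of the 10 genes in the 3 differences, and limma and a replicate block passed none. For AREG these 3 differences were −0.38 (SE 0.505), −0.22 (SE 0.445) and 0.17 (SE 0.447), each with an SE that leaves room for a difference of over 1.5 times.

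In the 3 libraries with the highest mean of S and G2/M phase genes (Jag1KO + ctrl replicates 1 and 2 and siJag1 replicate 2), EGFR, EREG, SPRY2 and SPRY4 had their lowest and ERBB2 and ERBB3 their highest levels of the 18 libraries. Jag1KO replicates 2 and 3, which came next in that mean, did not share the pattern, with 495 and 486 CPM of EGFR, 697 and 710 CPM of SPRY4 and 1.31 and 0.764 CPM of ERBB3. Over the 18 libraries the mean of these 97 genes had a Pearson r of 0.751 with ERBB2, 0.585 with TGFA and 0.542 with ERBB3 (permutation test, two-sided, adjusted p over the 10 genes = 0.0036, 0.0253 and 0.0264). It was −0.636 with SPRY2, −0.59 with EREG, −0.57 with SPRY4 and −0.55 with EGFR (permutation adjusted p = 0.0213, 0.0253, 0.0253 and 0.0253). The permutation treated the 18 libraries as exchangeable, although they are 6 conditions of 3 replicates. Over deviations from the group means, r of these genes was, in the same order, 0.691, 0.78, 0.472, −0.827, −0.671, −0.581 and −0.521. Spearman's rho for these 7 genes, in the same order, was 0.507, 0.618, 0.187, −0.449, −0.315, −0.307 and −0.0712, and 0 of the 10 genes passed by rank (smallest permutation adjusted p = 0.0764, for TGFA). Without the 2 libraries farthest from the median, Jag1KO + ctrl replicate 2 and siJag1 replicate 2, r fell to 0.634 for ERBB2, 0.501 for TGFA, 0.292 for ERBB3, −0.385 for SPRY2, −0.37 for EREG, −0.177 for SPRY4 and −0.239 for EGFR, so that the relation rested on those libraries for most of these genes. AREG (r = −0.272, rho = −0.0939, permutation adjusted p = 0.306 and 0.78), HBEGF (0.425 and 0.507, adjusted p = 0.102 and 0.111) and DUSP6 (0.218 and 0.385, adjusted p = 0.386 and 0.231) did not pass. Without those 2 libraries r was −0.00041 for AREG, 0.665 for HBEGF and 0.673 for DUSP6. The 97 genes had a median log2 fold change of −1.01, −1.12 and −0.593 in the 3 comparisons, against −0.0089, −0.00243 and −0.00731 over all genes tested. None of the 97 was called by edgeR, and 29, 43 and 0 had an unadjusted p below 0.05. The groups did not overlap in 19, 5 and 1 of them, where all genes had 13.8%, 32.5% and 10.5%. Their part in the differences of the 10 genes was not tested.

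**Figure D5:**
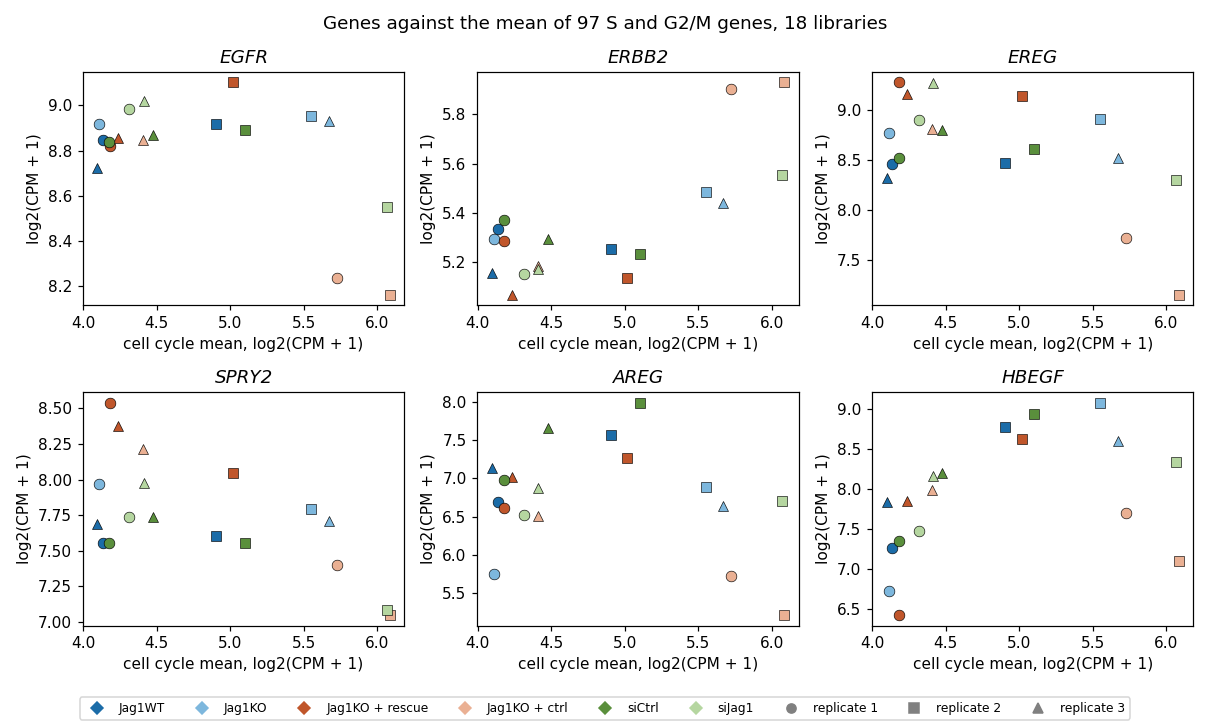
Log2(CPM + 1) of 6 genes against the mean log2(CPM + 1) of 97 S and G2/M phase genes, one point per library, colored by condition and shaped by replicate number. EGFR is flat up to a mean of 5.67 and lies lower in the 3 libraries at 5.72 to 6.09, ERBB2 is higher in them, and AREG has low values near both ends of the axis and its highest at 5.10.

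Other genes of the pathway were described from lists that had been written with earlier results of these data known. None was called by edgeR in the 3 comparisons. Of 13 ERK-induced genes 2, 6 and 0 had an unadjusted p below 0.05, against 8.81%, 30.8% and 3.83% of all genes, and the counts of the lists that follow are to be read against the same shares. In Jag1WT against Jag1KO 11 of 13 had a negative log2 fold change (median −0.201), with the rescue plasmid 11 of 13 a positive one (median 0.598), and in siCtrl against siJag1 10 of 13 a positive one (median 0.118). ETV1, an ETS factor and the gene of the list with the smallest adjusted p, went against most of that list, with 84.3 ± 14.5 CPM in Jag1KO + rescue and 178 ± 42.1 CPM in Jag1KO + ctrl (log2 fold change −1.08, SE 0.211, edgeR adjusted p = 0.104).

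Of 14 other negative regulators 0, 4 and 0 had an unadjusted p below 0.05, with medians of 0.0139, 0.241 and 0.021. SPRY1, another sprouty gene, had 21.0 ± 2.09 CPM in Jag1KO + rescue and 51.6 ± 13.2 CPM in Jag1KO + ctrl (−1.30, SE 0.212, edgeR adjusted p = 0.104), a direction opposite to that of SPRY2 and SPRY4 in the same libraries. Of 8 genes of ligand shedding (7 tested in siCtrl against siJag1) 0, 2 and 0 had one, with medians of 0.128, −0.18 and 0.15. RHBDF1, an inactive rhomboid that assists the sheddase ADAM17, had 23.6 ± 4.18 CPM with the rescue plasmid and 43.2 ± 5.13 CPM with the empty one (−0.88, SE 0.186, edgeR adjusted p = 0.104). Of 17 genes of the RAS-ERK cascade 0, 5 and 0 had one, with medians of 0.0146, 0.154 and −0.0198. The lowest adjusted p among them was that of MAPK3, which encodes ERK1 (17.6 ± 3.72 against 33.0 ± 10.2 CPM, −0.91, SE 0.272, edgeR adjusted p = 0.108). BRAF had the same rounded value and went the other way, higher with the rescue plasmid (0.68, SE 0.203, edgeR adjusted p = 0.108). Of the 8 other receptor and ligand genes, 4 were high enough to be tested, with medians of −0.00628, −0.911 and −0.0568 and 0, 2 and 0 at an unadjusted p below 0.05, and NRG2 had the smallest adjusted p (0.798 ± 0.123 against 2.12 ± 0.729 CPM, −1.40, SE 0.371, edgeR adjusted p = 0.105). These smallest values all came from the rescue comparison. RHBDF1 and NRG2 were lowest in Jag1KO + rescue, with means of 36.1 to 45.1 and 1.57 to 2.75 CPM in the other conditions. SPRY1, ETV1 and MAPK3 had their lowest means in Jag1KO + rescue and their highest in Jag1KO + ctrl.

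The genes most like EGFR over the 18 libraries, compared with 12747 genes that passed 1 CPM in 9 or more, were LINC02693 (Pearson r of log2(CPM + 1) = 0.973), NPC1 (0.946) and CCDC73 (0.942). Those most like HBEGF were E2F7 (0.964), ELK3 (0.952) and TRAF1 (0.95), and those most like DUSP6 were ICAM1 (0.914), ARHGEF35-AS1 (0.911) and CACNA2D4 (0.892). With the group means taken out these r were 0.96, 0.937 and 0.973 for EGFR, 0.969, 0.969 and 0.967 for HBEGF and 0.953, 0.897 and 0.911 for DUSP6. Among the 10 genes, EGFR had r = 0.871 with EREG, −0.857 with ERBB2 and −0.904 with ERBB3. These values share libraries and their depth and are descriptions.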

How the data were processed

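Stranded mRNA libraries were sequenced by the authors, and reads were aligned to hg38. The submitters' notes name featureCounts, edgeR 3.28.0, R 3.6.1 and MultiQC 1.5, and the aligner is not given in the sources used here. The authors deposited whole-number counts of uniquely mapped reads per gene. The CPM deposited by the authors are these counts after their TMM scaling, a normalized signal that need not sum to the same total in each library. The RPKM deposited by the authors were used only for gene length (CPM divided by RPKM), and 3 of their columns, which matched no sample label, were not used. Genes without a symbol (292, with up to 0.0442% of any library's counts) were left out.

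Counts were tested with edgeR 4.0.16 in R 4.3.3 (TMM, quasi-likelihood F test, 6 libraries, genes that passed 1 CPM in 3 or more), with Benjamini-Hochberg adjustment over all genes tested. The SE of an edgeR log2 fold change was derived from the test, as its absolute value divided by the square root of F. A call needed an adjusted p under 0.05 and more than a 1.5-fold change. These thresholds are those of the study, whose tool ROTS was not installed. Differences between comparisons used an interaction contrast over 12 libraries (above 1 CPM in at least 6). Limma 3.58.1 on log2(CPM + 1), DESeq2 1.42.0, other filters, a replicate block, a fit over 18 libraries and fits without each library were alternatives. The mean of the 3 comparisons (18 libraries, above 1 CPM in at least 9) was added after the values had been seen. Correlations used 100000 permutations, and S and G2/M genes came from Seurat 5.3.0. The scripts were tested on simulated data. Promoter windows and gene positions are from RefSeq (GRCh38.p14). P-values measure the spread between the cultures, and intervals cover no other source of error.

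All 10 genes were named, with JAG1 and HES1 as a check of the labels. From each pathway list, genes called in any of the 3 comparisons were named, and otherwise the gene with the smallest adjusted p (ties by p). BRAF, tied with MAPK3 after rounding, was named beside it. For EGFR, HBEGF and DUSP6 the 3 genes with the highest r were named. Members and lists were chosen with earlier results of these data known. Deviations from the group means went together in same-numbered libraries of siCtrl and siJag1 (correlations across genes of 0.543, 0.522 and 0.264) and in siCtrl and Jag1WT (0.595, 0.713 and 0.21), which was taken as pairing.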

Additional observations from a re-analysis of the deposited data

Results flagged for a closer look

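EREG was flagged because its groups did not overlap in 2 comparisons, in opposite directions. Of all genes, 13.8% did not overlap in the knockout and 32.5% in the rescue comparison. How many did so in opposite directions was not counted. Each Jag1WT library lay below each Jag1KO library, and each Jag1KO + rescue library lay above each Jag1KO + ctrl library. The difference between the 2 log2 fold changes was −1.43 (SE 0.431), and its edgeR adjusted p of 0.0995 did not pass.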

How the results depend on the processing

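The number of genes called changed with the settings. Calls in Jag1WT against Jag1KO (92) became 235 with DESeq2, 157 without a filter, 59 with a filter above 1 CPM in all 6 libraries, and 8 to 933 without 1 library each, with 933 without Jag1KO replicate 1 and at most 21 without any of the others. In the rescue comparison (1) they became 2 with limma, 1567 with DESeq2, 2 without a filter, 2133 in the fit over 18 libraries, and 0 to 3649 without 1 library, with 3649 without Jag1KO + ctrl replicate 3, 3 without Jag1KO + ctrl replicate 1 and 0 without any of the others. In siCtrl against siJag1 (2) they became 0 with limma, 24 with DESeq2, 8 without a filter, 0 with the filter in all 6 libraries, 7 in the fit over 18 libraries, and 0 to 4 without 1 library, with 4 without siJag1 replicate 2, 1 without siJag1 replicate 1 and 0 without any of the others. In Jag1KO + ctrl against Jag1KO (0) they became 13 with DESeq2, 1 in the fit over 18 libraries, and 0 to 301 without 1 library, the highest without Jag1KO + ctrl replicate 3.

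With the replicate number as a block, calls were 282, 3 and 4 in the 3 comparisons and 1 in siCtrl against Jag1WT. In Jag1WT and Jag1KO, same-numbered libraries had correlations of 0.632, 0.667 and −0.0137, and in the rescue and empty-plasmid groups −0.207, 0.345 and 0.242. As these were not above 0 in every replicate, pairing was not assumed there. Yet 0.632 and 0.667 exceeded the values of siCtrl and siJag1 for the same replicates (0.543 and 0.522). The labels state no pairing for any groups, and libraries with different numbers were not compared. AREG was called with the block in Jag1WT against Jag1KO (0.71, edgeR adjusted p = 0.0121, range over the alternatives 0.0121 to 1) and not in the rescue comparison (1.15, adjusted p = 0.0603, range 0.00621 to 0.375). In the mean of the 3 comparisons the block gave AREG 0.86 (edgeR adjusted p = 0.00606), with 0.854% of 12757 genes called higher and 3.85% lower. The block changed no other call of the 10 genes.

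Of 681 values of the 10 genes under the alternatives, 623 kept direction and call, 19 gained a call and 39 changed sign. None of these could lose a call, as none was called in the main fits. The r with the S and G2/M mean and the mean of the 3 comparisons were counted apart. In that mean 13 values lost a call (all of AREG), 1 gained one and 7 changed sign. In siCtrl against siJag1, ERBB2 (−0.00021) became 0.0059 with limma, 0.0063 with a pseudocount of 0.25, 0.00099 with the filter in all 6 libraries and 0.011 with the block, and SPRY2 (−0.02) became 0.016 with limma, 0.016 with a pseudocount of 0.25 and 0.022 with the block. The difference between knockout and rescue for DUSP6 (−0.0059) became 0.0091 with the block, and the r of AREG with the S and G2/M mean became 0.224 over deviations from group means. The mean fold change of HBEGF over the 3 comparisons (0.05) became −0.072 with the block and ran from −0.149 to 0.214 without 1 library. Without 1 library, log2 fold changes that changed sign ran from −0.861 to 0.139 (HBEGF) and −0.101 to 0.148 (TGFA) in Jag1WT against Jag1KO, and from −0.356 to 0.662 (HBEGF) and −0.222 to 0.0261 (DUSP6) in the rescue comparison. In siCtrl against siJag1 they ran from −0.122 to 0.0904 (EGFR), −0.0816 to 0.159 (ERBB2), −0.428 to 0.0297 (EREG), −0.192 to 0.577 (HBEGF) and −0.230 to 0.180 (SPRY2). In Jag1KO + ctrl against Jag1KO they ran from −0.0686 to 0.211 (TGFA) and −0.604 to 0.0302 (SPRY2). In siCtrl against Jag1WT they ran from −0.0181 to 0.0718 (EGFR), −0.272 to 0.716 (HBEGF), −0.0934 to 0.151 (TGFA), −0.135 to 0.0148 (DUSP6), −0.0744 to 0.0351 (SPRY2) and −0.0279 to 0.164 (SPRY4). The cause of these changes was not tested. With 8 to 84 reads, ERBB3 is limited by depth.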
